A study of Mus musculus with 18 samples.

Results

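The collagen chain genes were taken as all genes of the deposited expression table whose symbol is Col, a number, the letter a and a number. There were 44 such genes among 26538 genes, and 26 of them had a mean of at least 0.5 FPKM over all tumours. FPKM, fragments scaled by gene length and library size, is a level per length, so that genes can be compared with each other. Collagens are the main structural proteins of the extracellular matrix, each a helix of chains rich in glycine and proline that are encoded by separate genes. Fibrillar collagens, types I, III and V among them, form the fibres of connective tissue. Type IV collagen forms the sheet of basement membranes, type VI collagen the beaded filaments around cells, and fibril-associated collagens decorate the fibres. In tumours most of this matrix is made by fibroblasts and pericytes, tumour cells of mesenchymal character make it too, and dense collagen is known for hindering the entry of T cells.

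RNA was sequenced from 18 mouse tumours that had not been treated themselves, taken from mice that had an ablation at a separate tumour. The 6 groups of 3 tumours were cryo-thermal therapy with anti-PD-1, cryo-thermal therapy, radiofrequency ablation with anti-PD-1, radiofrequency ablation, cryoablation with anti-PD-1 and cryoablation. Cryoablation freezes the tissue, radiofrequency ablation heats it with an alternating current, cryo-thermal therapy joins freezing and heating, and anti-PD-1 is an antibody against an inhibitory receptor of T cells. Every group had an ablation, so each comparison is between treated animals. Tumour line, strain, age and day are not given in the sources used here. Nothing in the labels says that the 3 tumours of a group are from different mice, so the p-values reflect only how far these samples scatter, and that scatter may be technical. The labels call the tissue tumour only, and of 6 epithelial genes Krt8, Krt18 and Cldn7 averaged under 0.5 FPKM, Epcam 0.523, Krt19 0.541 and Cdh1 3.36 FPKM. Relative sequencing depth was estimated as 0.990 to 1.02 between tumours. The estimate used only genes whose nonzero values lay within a factor of 1.1 of each other, so a larger difference in depth could not show. Keratinocyte and hair follicle genes were highest in replicate 1 of cryo-thermal therapy with anti-PD-1 and in replicates 1 and 2 of cryoablation with anti-PD-1, called skin-rich here, with mean log2 levels of 4.46, 3.79 and 3.53 against 0.70 to 2.87 in the other 15 tumours. Values were tested as log2(FPKM + 1) with limma, with Benjamini-Hochberg adjustment across all 12587 genes that averaged at least 0.5 FPKM.

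Promoter windows from RefSeq (GRCm38.p6, 250 bases before to 50 bases after the start site) were found for 35 of the 44 genes and for 21 of the 26. Those of Col3a1, Col1a2, Col6a1 and Col4a1 are shown because these genes lead the patterns described below. Capitals mark the CCAAT box (CCAAT or ATTGG), the TATA box (TATAAA or TTTATA) and the GC box (GGGCGG or CCGCCC) on either strand. The motifs did not overlap each other in these windows, and a match is one of letters only.

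Col3a1 (chr1:45311288-45311587, + strand): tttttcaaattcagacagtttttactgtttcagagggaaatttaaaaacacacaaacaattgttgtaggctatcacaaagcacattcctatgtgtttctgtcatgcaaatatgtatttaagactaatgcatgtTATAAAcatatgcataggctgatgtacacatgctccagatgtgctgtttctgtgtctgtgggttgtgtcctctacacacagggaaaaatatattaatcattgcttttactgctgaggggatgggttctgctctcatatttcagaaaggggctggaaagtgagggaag

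Col1a2 (chr6:4505368-4505667, + strand): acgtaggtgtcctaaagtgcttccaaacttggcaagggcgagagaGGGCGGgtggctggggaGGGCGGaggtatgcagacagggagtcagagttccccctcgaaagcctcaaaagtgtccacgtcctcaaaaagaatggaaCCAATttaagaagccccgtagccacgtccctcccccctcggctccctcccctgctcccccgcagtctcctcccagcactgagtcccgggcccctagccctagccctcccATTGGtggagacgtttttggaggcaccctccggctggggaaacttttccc

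Col6a1 (chr10:76725995-76726294, - strand): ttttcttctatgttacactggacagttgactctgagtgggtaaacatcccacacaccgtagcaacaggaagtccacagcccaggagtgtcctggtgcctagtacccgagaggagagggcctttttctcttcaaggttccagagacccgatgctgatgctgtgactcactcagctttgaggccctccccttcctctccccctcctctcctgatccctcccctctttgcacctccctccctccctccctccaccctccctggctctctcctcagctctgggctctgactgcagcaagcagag

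Col4a1 (chr8:11312777-11313076, - strand): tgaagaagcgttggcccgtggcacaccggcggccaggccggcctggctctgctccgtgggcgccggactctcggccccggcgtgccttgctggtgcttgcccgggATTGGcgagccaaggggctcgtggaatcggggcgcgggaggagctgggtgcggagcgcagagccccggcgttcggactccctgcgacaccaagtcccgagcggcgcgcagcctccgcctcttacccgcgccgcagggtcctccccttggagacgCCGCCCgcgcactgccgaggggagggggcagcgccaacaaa

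The Col3a1 window held 1 TATA box and none of the other motifs, the Col1a2 window 2 CCAAT boxes and 2 GC boxes, the Col6a1 window none, and the Col4a1 window 1 CCAAT box and 1 GC box. Of 32851 windows of all genes 37.4% held a CCAAT box, 13.6% a TATA box and 35.7% a GC box. Over the 23 windows of collagen genes with a mean of at least 0.5 FPKM, some of which have more than 1, the shares were 39.1%, 13.0% and 69.6%. Col4a1 and Col4a2 are transcribed away from each other from RefSeq start sites 21 bases apart, so that the Col4a1 window also holds the start of Col4a2.

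Type III and type VI chains led the collagen message. By mean level over the 18 tumours the order was Col3a1 at 606 FPKM, Col6a1 at 290.3, Col1a1 at 167, Col6a3 at 139, Col6a2 at 133 and Col1a2 at 107 FPKM. These 6 genes held 75.1% to 83.5% of all collagen FPKM per tumour. Neighbours in this order overlapped across tumours, since Col3a1 ran from 246 to 1054 FPKM, Col6a1 from 142 to 505, Col1a1 from 89.2 to 278, Col6a3 from 114 to 159 and Col1a2 from 25.9 to 225 FPKM. The next genes were Col16a1, Col5a1, Col18a1, Col5a2, Col5a3, Col4a1, Col4a2, Col8a1 and Col7a1, with means of 62.6 to 17.5 FPKM, and the other 11 of the 26 averaged at most 8.35 FPKM. By class, fibrillar chains took 45.5% to 64.0% of collagen FPKM, type VI chains 21.7% to 38.1% and type IV chains 2.34% to 4.86%. The 18 genes under the filter included Col2a1, the chain of cartilage collagen, and Col10a1, that of hypertrophic cartilage. Col8a2 lay just inside the filter with 0.531 FPKM, and Col28a1 just outside it with 0.499 FPKM.

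All collagen genes together summed to 1596, 1274 and 1168 FPKM in replicates 1, 2 and 3 of cryo-thermal therapy with anti-PD-1 and to 1465, 1357 and 2255 FPKM after cryo-thermal therapy. The sums were 1577, 2289.6 and 1433 FPKM after radiofrequency ablation with anti-PD-1 and 1637, 1833 and 2479.9 FPKM after radiofrequency ablation. They were 1367, 1627 and 1787 FPKM after cryoablation with anti-PD-1 and 2578, 2230.3 and 2593 FPKM after cryoablation. The highest total belonged to a cryoablation tumour and the lowest to one given cryo-thermal therapy with anti-PD-1, and replicate 3 of cryo-thermal therapy, replicate 2 of radiofrequency ablation with anti-PD-1 and replicate 3 of radiofrequency ablation lay within the range of the cryoablation tumours.

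The 26 genes did not move as a block across the tumours. Likeness of pattern was measured as Pearson r of log2(FPKM + 1) over the 18 tumours, which share a library and its depth between genes. With Col3a1, 7 of the other genes had r over 0.7: Col5a1 (0.98), Col16a1 (0.95), Col6a2 (0.94), Col6a1 (0.93), Col4a5 (0.86), Col18a1 (0.83) and Col27a1 (0.72). With Col1a2, 6 had r over 0.7: Col1a1 (0.93), Col14a1 (0.90), Col15a1 (0.89), Col12a1 (0.86), Col8a2 (0.80) and Col4a1 (0.78). No gene was in both sets, 11 were in neither, and Col3a1 and Col1a2 themselves had r of -0.25. Col5a2, the partner of Col5a1 in type V collagen, stood between the sets with r of 0.57 to Col3a1 and 0.52 to Col1a2. After removal of the group means, r with Col3a1 was 0.99 for Col5a1 and 0.89 for Col6a1, and r with Col1a2 was 0.95 for Col1a1 and 0.92 for Col14a1. These sets were formed from the values and are given as a description.

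**Figure D1:**
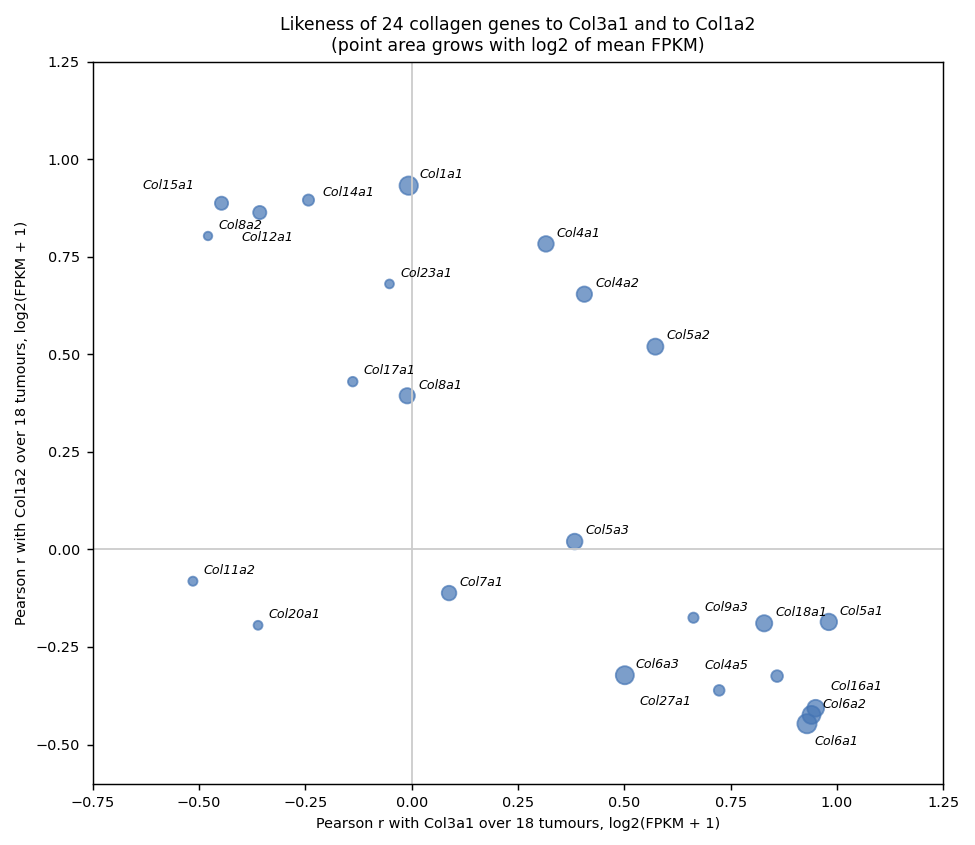
Pearson r of each of 24 collagen genes with Col3a1 (horizontal) and with Col1a2 (vertical) over 18 tumours, on log2(FPKM + 1); point area grows with the mean level. Col5a1, Col16a1, Col6a1 and Col6a2 sit at the right with r over 0.9 to Col3a1, and Col1a1, Col14a1, Col15a1 and Col12a1 at the top with r over 0.8 to Col1a2.

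Chains of the same collagen type, and Col3a1 with Col1a1, were compared in 7 pairs, with permutation p-values from 100000 permutations, 2-sided and adjusted over the 14 tests of r and rho. Col6a1 and Col6a2 were the closest, with r = 0.9965 and rho = 0.992 (adjusted p = 2.33e-05 for each by permutation). Their FPKM ratio stayed between 1.95 and 2.47 in all 18 tumours, while Col6a3, which supplies the long chain of type VI collagen, had r = 0.641 with Col6a1 (rho = 0.649, permutation adjusted p = 0.00793 for each). Col6a3 varied least among the abundant genes, with an SD of 0.13 on the log2 scale against 0.53 for Col6a1 and 0.60 for Col6a2. The basement membrane pair Col4a1 and Col4a2 had r = 0.947 and rho = 0.936, and the type I pair Col1a1 and Col1a2 r = 0.932 and rho = 0.936 (permutation adjusted p = 2.33e-05 for each). Here 1e-05 is the smallest p that the permutations can give before adjustment. They ran over all 18 tumours without regard to group, so differences between groups enter these p-values.

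The FPKM ratio of Col4a1 to Col4a2 ran from 0.950 to 1.36. That of Col1a1 to Col1a2 ran from 1.20 to 3.45, highest in radiofrequency replicate 2. Col5a1 and Col5a2 had r = 0.623 and rho = 0.604 (permutation adjusted p = 0.0107 and 0.0133), and r was 0.4995 without the 2 tumours farthest from the median of Col5a1. For Col8a1 and Col8a2 r was 0.407 and rho 0.422 (permutation adjusted p = 0.109 and 0.106). Col3a1 and Col1a1, whose products share fibres in connective tissue, had r = -0.00708 and rho = -0.0217 (permutation adjusted p = 0.978 for each). Without the 2 tumours farthest from the median of the first gene, r was 0.910 for the type I pair, 0.917 for the type IV pair, 0.996 for Col6a1 with Col6a2, 0.720 for Col6a1 with Col6a3, 0.463 for the type VIII pair and -0.0869 for Col3a1 with Col1a1. Within groups r was 0.947, 0.985, 0.994, 0.683, 0.0586 and 0.282 for the same pairs in that order, and 0.590 for the type V pair.

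Col3a1, the chain of type III collagen in pliable connective tissue, measured 414, 295 and 246 FPKM in replicates 1, 2 and 3 after cryo-thermal therapy with anti-PD-1 and 334, 382 and 905 FPKM after cryo-thermal therapy alone. It measured 437, 818 and 459 FPKM after radiofrequency ablation with anti-PD-1 and 615, 726 and 974 FPKM after radiofrequency ablation alone. The values were 354, 523 and 543 FPKM after cryoablation with anti-PD-1 and 1054, 849 and 975 FPKM after cryoablation alone. The cryoablation tumours lay above every cryoablation tumour given the antibody, and of the cryo-thermal tumours only replicate 3 reached their range. In bulk tissue, fewer cells of a type and less RNA per cell cannot be told apart.

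Col6a1, a chain of the beaded filaments, measured 194, 201 and 209 FPKM after cryo-thermal therapy with anti-PD-1 and 142, 194 and 390.2 FPKM after cryo-thermal therapy. It measured 239, 346 and 233 FPKM after radiofrequency ablation with anti-PD-1 and 302, 365 and 411 FPKM after radiofrequency ablation. After cryoablation with anti-PD-1 it measured 175, 237 and 239.7 FPKM, against 505, 388 and 454 FPKM after cryoablation. The 6 group means stood in the same order as for Col3a1, with 202 ± 7.43 FPKM after cryo-thermal therapy with anti-PD-1 at the low end and 449 ± 58.7 FPKM after cryoablation at the high end (SD, n = 3 each). Its partner Col6a2 measured 84.5, 81.3 and 87.3 FPKM after cryo-thermal therapy with anti-PD-1 and 61.2, 83.0 and 182 FPKM after cryo-thermal therapy. It measured 109.8, 169.6 and 103 FPKM after radiofrequency ablation with anti-PD-1 and 133, 172 and 187 FPKM after radiofrequency ablation. In cryoablation with anti-PD-1 it was at 75.8, 105 and 105 FPKM, against 259, 176 and 222 FPKM after cryoablation. For this gene too the cryoablation groups with and without the antibody did not overlap. Col6a3 measured 117, 138 and 148 FPKM after cryo-thermal therapy with anti-PD-1, 114, 129 and 159 FPKM after cryo-thermal therapy and 130.2, 152 and 152 FPKM after radiofrequency ablation with anti-PD-1. It measured 131, 135 and 157 FPKM after radiofrequency ablation, 133, 129.6 and 137 FPKM after cryoablation with anti-PD-1 and 142, 153 and 141 FPKM after cryoablation, a narrow range in every group.

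Col5a1, a fibrillar chain that helps to start type I and type III fibres, measured 40.5, 33.8 and 31.7 FPKM after cryo-thermal therapy with anti-PD-1 and 37.9, 41.0 and 65.2 FPKM after cryo-thermal therapy. It measured 44.6, 66.5 and 48.9 FPKM after radiofrequency ablation with anti-PD-1 and 50.2, 52.6 and 64.5 FPKM after radiofrequency ablation. The values were 39.2, 47.2 and 51.2 FPKM after cryoablation with anti-PD-1 and 74.8, 68.7 and 73.7 FPKM after cryoablation, and the cryoablation tumours were the highest of all. Col16a1, a fibril-associated chain, measured 46.4, 48.2 and 47.8 FPKM after cryo-thermal therapy with anti-PD-1 and 45.9, 54.3 and 76.6 FPKM after cryo-thermal therapy. It measured 58.5, 70.7 and 59.3 FPKM after radiofrequency ablation with anti-PD-1 and 66.7, 68.2 and 74.0 FPKM after radiofrequency ablation. After cryoablation with anti-PD-1 it measured 46.8, 60.3 and 56.4 FPKM, against 88.4, 78.1 and 81.0 FPKM after cryoablation. The cryoablation tumours were again the highest, above all 15 others.

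Col18a1, a basement membrane collagen whose end fragment is endostatin, measured 36.5, 33.4 and 32.9 FPKM after cryo-thermal therapy with anti-PD-1 and 23.3, 36.7 and 43.9 FPKM after cryo-thermal therapy. It measured 45.3, 57.0 and 37.3 FPKM after radiofrequency ablation with anti-PD-1 and 43.4, 42.7 and 49.7 FPKM after radiofrequency ablation. In cryoablation with anti-PD-1 it was at 37.6, 45.9 and 49.9 FPKM, against 59.8, 57.7 and 66.1 FPKM after cryoablation. The cryoablation tumours lay above all the cryo-thermal tumours, with or without the antibody. Col27a1, a fibrillar chain known from cartilage, measured 1.30, 1.28 and 2.44 FPKM after cryo-thermal therapy and 2.93, 2.54 and 2.90 FPKM after cryoablation, groups that did not overlap. It measured 2.52, 2.06 and 1.96 FPKM after cryo-thermal therapy with anti-PD-1, 2.21, 2.76 and 2.03 FPKM after radiofrequency ablation with anti-PD-1, 2.14, 2.85 and 2.75 FPKM after radiofrequency ablation and 2.02, 2.11 and 1.70 FPKM after cryoablation with anti-PD-1. Col4a5, a chain of a minor type IV network, measured 2.13, 2.20 and 2.25 FPKM after cryo-thermal therapy with anti-PD-1 and 2.77, 2.71 and 5.27 FPKM after cryo-thermal therapy. With radiofrequency ablation it measured 2.36, 3.75 and 3.52 FPKM with the antibody and 4.81, 3.96 and 7.39 FPKM without, and with cryoablation 2.25, 4.72 and 3.51 FPKM with the antibody and 5.57, 5.64 and 4.00 FPKM without. In each ablation its mean was lower with the antibody.

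**Figure D2:**
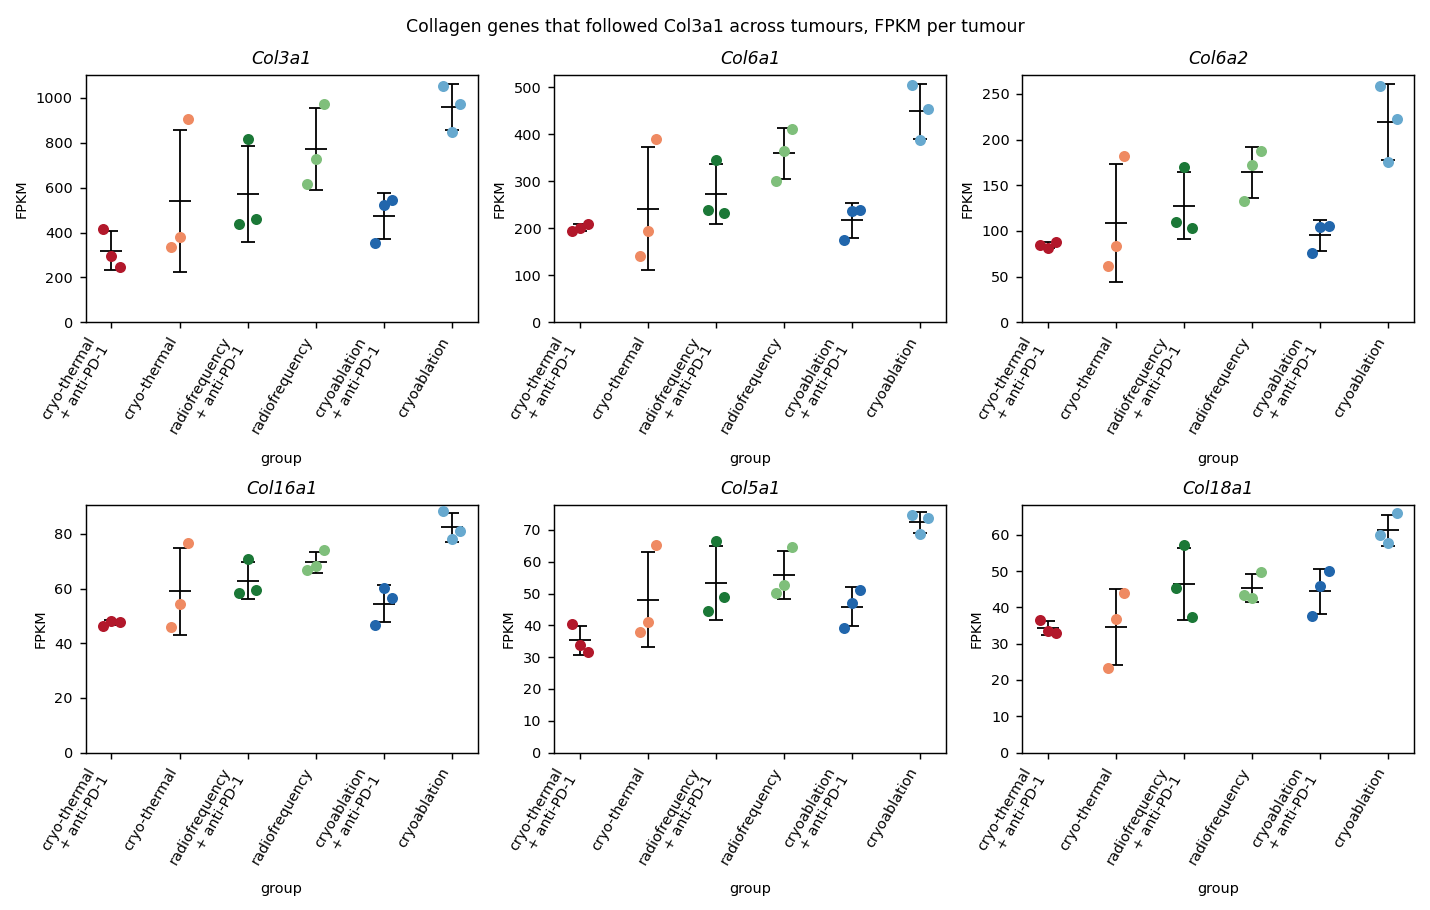
FPKM of Col3a1, Col6a1, Col6a2, Col16a1, Col5a1 and Col18a1 in 3 tumours of each of 6 groups; points are tumours, bars the mean and SD. The 3 cryoablation tumours are the highest of all for Col16a1, Col5a1 and Col18a1, while for Col3a1, Col6a1 and Col6a2 other tumours exceed the lowest of them, and cryo-thermal replicate 3 lies above the other 2 of its group in each panel.

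Type I collagen did not follow Col3a1. Col1a1, the main chain of the stiff fibres of skin, bone and scar, measured 246, 149 and 116 FPKM after cryo-thermal therapy with anti-PD-1 and 278, 143 and 145 FPKM after cryo-thermal therapy. It measured 177, 232 and 116 FPKM after radiofrequency ablation with anti-PD-1 and 93.6, 89.2 and 196 FPKM after radiofrequency ablation. After cryoablation with anti-PD-1 it measured 162, 156 and 216 FPKM, against 135, 154 and 205 FPKM after cryoablation. All 6 of its groups overlapped, and cryo-thermal replicate 1 was the highest tumour. Col1a2, its partner chain, measured 172, 99.5 and 70.2 FPKM after cryo-thermal therapy with anti-PD-1 and 225, 107 and 86.2 FPKM after cryo-thermal therapy. It measured 124, 127 and 64.6 FPKM after radiofrequency ablation with anti-PD-1 and 41.3, 25.9 and 127 FPKM after radiofrequency ablation. In cryoablation with anti-PD-1 it was at 135, 106 and 157 FPKM, against 57.7, 80.5 and 127 FPKM after cryoablation. Radiofrequency replicates 1 and 2 were the lowest tumours for both chains of type I collagen.

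Col12a1, a fibril-associated chain of tissues under tension, measured 19.2, 9.62 and 6.37 FPKM after cryo-thermal therapy with anti-PD-1 and 11.1, 6.06 and 3.43 FPKM after cryo-thermal therapy. It measured 13.4, 9.14 and 4.54 FPKM after radiofrequency ablation with anti-PD-1 and 3.51, 1.85 and 6.58 FPKM after radiofrequency ablation, and 9.75, 9.07 and 14.6 FPKM after cryoablation with anti-PD-1 against 4.28, 8.61 and 9.25 FPKM after cryoablation. In each ablation its mean was higher with the antibody. Col15a1, found beneath vessel and muscle basement membranes, measured 10.8, 10.7 and 10.3 FPKM after cryo-thermal therapy with anti-PD-1 and 12.2, 9.12 and 7.03 FPKM after cryo-thermal therapy. It measured 8.48, 11.5 and 4.97 FPKM after radiofrequency ablation with anti-PD-1 and 3.33, 2.83 and 9.59 FPKM after radiofrequency ablation, and 10.2, 9.95 and 10.9 FPKM after cryoablation with anti-PD-1 against 4.80, 6.34 and 7.17 FPKM after cryoablation. The last 2 groups did not overlap. Col4a1, a chain of the main basement membrane network, measured 36.6, 24.9 and 21.3 FPKM after cryo-thermal therapy with anti-PD-1 and 34.2, 26.7 and 32.1 FPKM after cryo-thermal therapy. In radiofrequency ablation it stood at 31.5, 41.0 and 18.6 FPKM with the antibody and at 18.8, 20.0 and 43.6 FPKM without, and in cryoablation at 35.3, 30.3 and 36.1 FPKM with the antibody and at 27.3, 31.8 and 40.6 FPKM without. Its groups all overlapped. Its partner Col4a2 measured 31.8, 24.3 and 22.4 FPKM after cryo-thermal therapy with anti-PD-1 and 25.2, 23.5 and 25.9 FPKM after cryo-thermal therapy. In radiofrequency ablation it stood at 26.4, 36.2 and 18.8 FPKM with the antibody and at 18.6, 19.6 and 36.9 FPKM without, and in cryoablation at 28.9, 25.5 and 30.2 FPKM with the antibody and at 27.4, 29.8 and 36.8 FPKM without. Both genes were spread widely in the radiofrequency groups, with the highest value in replicate 3 of radiofrequency ablation.

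**Figure D3:**
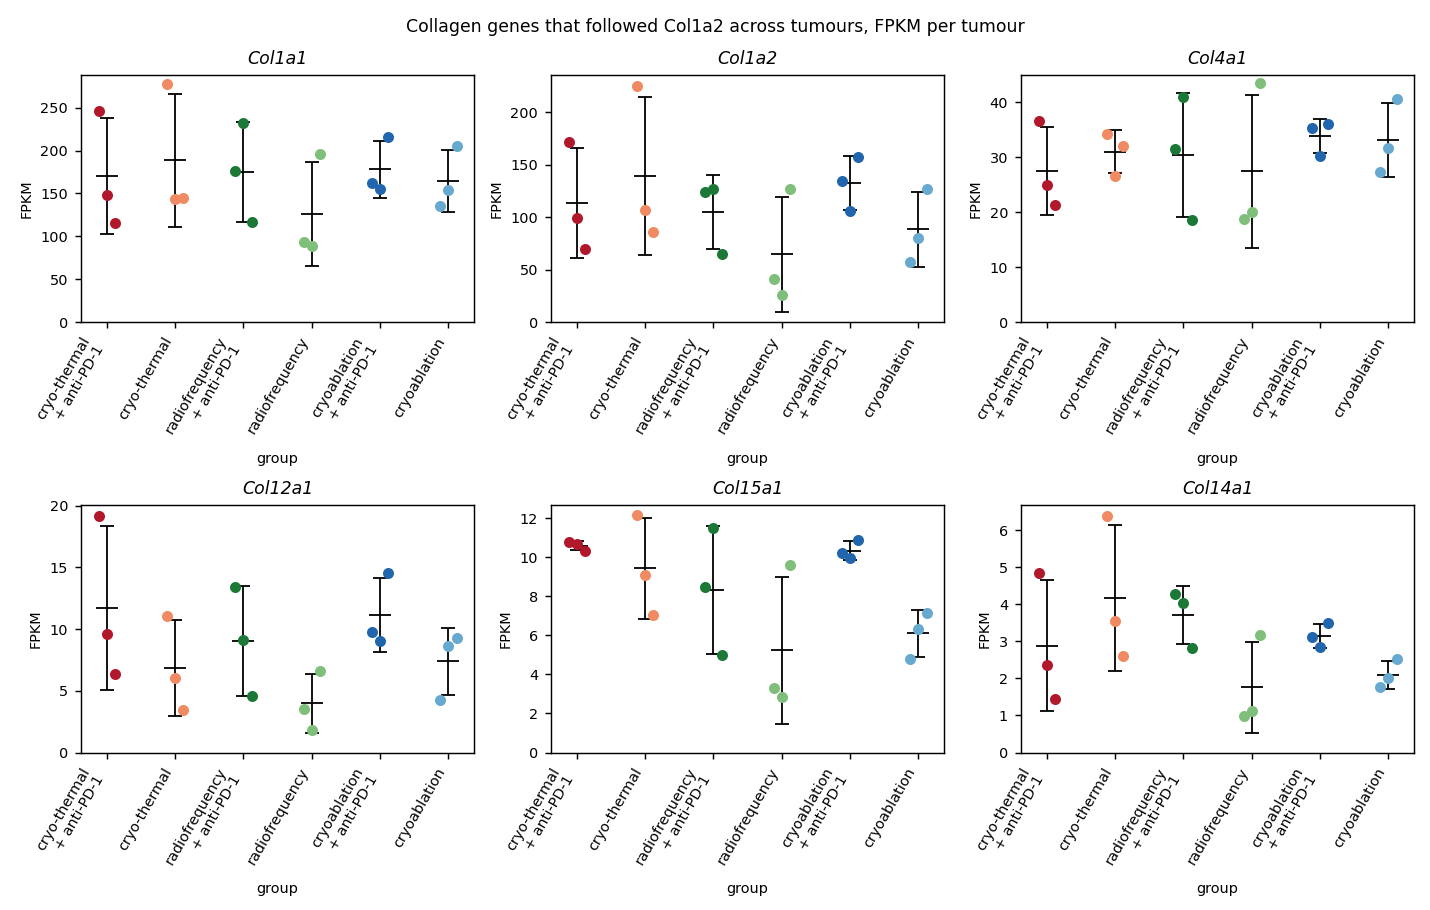
FPKM of Col1a1, Col1a2, Col4a1, Col12a1, Col15a1 and Col14a1 in 3 tumours of each of 6 groups; points are tumours, bars the mean and SD. Replicates differ widely within groups, as in cryo-thermal therapy where Col1a1 measured 143 to 278 FPKM.

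The ratio of Col3a1 to Col1a1 FPKM was 1.68, 1.99 and 2.12 after cryo-thermal therapy with anti-PD-1 and 1.20, 2.67 and 6.25 after cryo-thermal therapy. It was 2.47, 3.53 and 3.95 after radiofrequency ablation with anti-PD-1 and 6.57, 8.13 and 4.97 after radiofrequency ablation. After cryoablation with anti-PD-1 it was 2.18, 3.36 and 2.52, against 7.79, 5.52 and 4.75 after cryoablation. With the antibody and without it the ratios did not overlap in the radiofrequency groups or in the cryoablation groups, while those of the cryo-thermal groups overlapped. This ratio was chosen after the values were seen and was not tested.

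**Figure D4:**
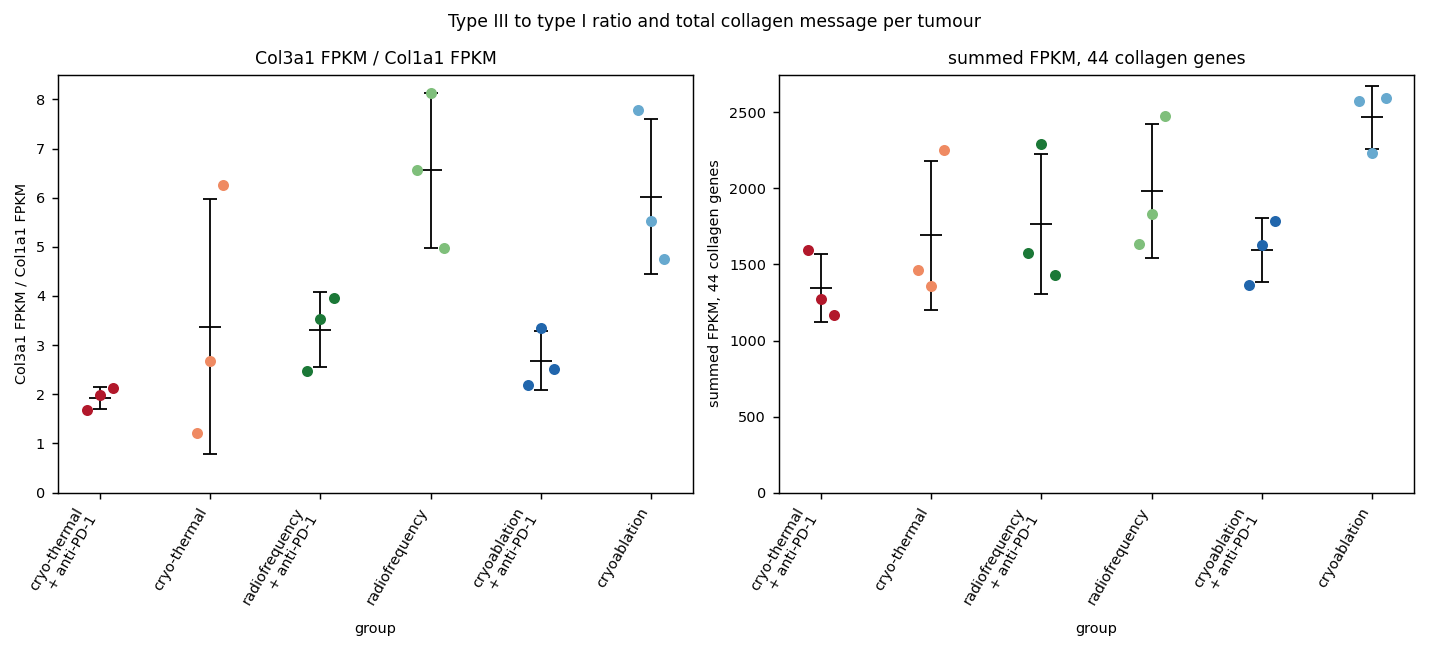
Left, Col3a1 FPKM over Col1a1 FPKM; right, summed FPKM of the 44 collagen genes; each for 3 tumours of 6 groups, with mean and SD as bars. The ratio was 2.18 to 3.36 in cryoablation with anti-PD-1 and 4.75 to 7.79 in cryoablation.

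Cryo-thermal therapy was compared with cryoablation, both without anti-PD-1. Of 26 collagen genes 6 were lower, Col18a1, Col6a2, Col6a1, Col27a1, Col16a1 and Col5a1, and 2 were higher, Col11a2 and Col20a1, against a background of 6.96% of all genes lower and 8.01% higher. Col18a1 had a log2 change of -0.85 (SE 0.18, adjusted p = 0.00987), Col6a2 of -1.14 (SE 0.30, adjusted p = 0.022) and Col6a1 of -1.01 (SE 0.27, adjusted p = 0.0229). Col27a1 fell by 0.53, Col16a1 by 0.51 and Col5a1 by 0.62 on the log2 scale (adjusted p = 0.0243, 0.0266 and 0.0352). Col3a1 averaged 540.1 ± 317 FPKM after cryo-thermal therapy and 959 ± 103 FPKM after cryoablation (SD, n = 3 each), a log2 change of -0.97 (SE 0.34, adjusted p = 0.062) that did not pass. The genes that rose were low, and their share of the 26 was like that over all genes. Col11a2, a fibrillar chain of cartilage, measured 0.987, 1.77 and 0.955 FPKM after cryo-thermal therapy and 0.31, 0.603 and 0.198 FPKM after cryoablation, a log2 change of 0.70 (SE 0.20, adjusted p = 0.0286). Col20a1, a little studied fibril-associated chain, measured 0.692, 1.15 and 1.04 FPKM after cryo-thermal therapy and 0.366, 0.548 and 0.341 FPKM after cryoablation, a log2 change of 0.46 (SE 0.13, adjusted p = 0.0323). Neither gene overlapped between the groups, but the share of all genes without overlap was not computed for this comparison. Of 10 cartilage and bone genes 8 averaged under 0.5 FPKM. The transcription factor genes Sox9 and Runx2 averaged 70.1 and 11.9 FPKM and did not pass in this comparison (log2 fold change -0.04 and -0.09, adjusted p = 0.895 and 0.491). In cryo-thermal therapy with anti-PD-1, radiofrequency ablation with anti-PD-1, radiofrequency ablation and cryoablation with anti-PD-1, Col11a2 ran from 0.493 to 1.90 FPKM and Col20a1 from 0.411 to 1.18 FPKM. Col1a1 had a log2 change of 0.14 (SE 0.35, adjusted p = 0.816) with a 95% interval of -0.61 to 0.90, and Col1a2 of 0.60 (SE 0.51, adjusted p = 0.458) with an interval of -0.50 to 1.69.

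The median log2 fold change of the 26 genes was -0.33, against -0.01 over all genes tested. The count of 8 became 1 when replicate 2 of the cryo-thermal group or replicate 1 or 3 of the cryoablation group was left out, 2 when cryo-thermal replicate 1 was, and 10 when cryo-thermal replicate 3 was. It was 1 in a fit of only these groups, 1 with no filter on low values and 16 with array weights, where 43.4% of all genes passed. Without cryo-thermal replicate 3 Col3a1 passed, with a log2 fold change of -1.42 (adjusted p = 0.00432), and with array weights it was -1.28 (adjusted p = 0.000327). That tumour also stood apart in its blood and T cell genes. After cryo-thermal therapy 5 of 5 measured erythroid genes were lower and 7 of 7 T cell genes higher. The 6 listed erythroid genes summed to 39.4, 23.6 and 210.4 FPKM after cryo-thermal therapy and 751, 558 and 772 FPKM after cryoablation. The 7 T cell genes summed to 36.9, 24.8 and 11.8 FPKM after cryo-thermal therapy and 2.33, 3.41 and 3.15 FPKM after cryoablation. Their part in the result was not tested.

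Anti-PD-1 added to cryoablation went with lower Col6a1, Col6a2 and Col16a1, while Col6a3 had -0.12 (SE 0.11, adjusted p = 0.547). Of 26 genes 3 were lower and 0 higher, with backgrounds of 2.53% lower and 1.79% higher. Col16a1 had a log2 change of -0.59 (SE 0.14, adjusted p = 0.0325), Col6a2 of -1.19 (SE 0.30, adjusted p = 0.0388) and Col6a1 of -1.05 (SE 0.27, adjusted p = 0.0408). Groups of tumours did not overlap for 10 genes that lay lower and 6 that lay higher with the antibody, against backgrounds of 18% and 13.6%. Col3a1 averaged 473 ± 104 FPKM after cryoablation with anti-PD-1 and 959 ± 103 FPKM after cryoablation, with a log2 change of -1.04 (SE 0.34, adjusted p = 0.0831), and Col5a1 had -0.66 (SE 0.18, adjusted p = 0.0557); neither passed. Col1a1 had a log2 change of 0.12 (SE 0.35, adjusted p = 0.872). This comparison shares its cryoablation tumours with the one above. The median over the 26 genes was -0.13, against -0.01 over all genes.

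Without the skin-rich tumours, of which replicates 1 and 2 are in the cryoablation with anti-PD-1 group, no gene passed, collagen or other. The lone tumour left in that group was then taken to vary like the other groups. Col6a1 had -0.89 (adjusted p = 0.445). The count was 1 without replicate 2 of cryoablation with anti-PD-1, 0 without its replicate 1 or 3 or without cryoablation replicate 1 or 3, 6 in a fit of only these groups, 7 with array weights (15.7% of all genes) and 0 with no filter on low values. The mean log2 level of keratinocyte and hair follicle genes was 3.79, 3.53 and 2.26 in the cryoablation with anti-PD-1 tumours and 1.37, 2.26 and 1.43 in the cryoablation tumours, and 3 of 5 measured erythroid genes were lower. Erythroid genes summed to 54.0, 53.0 and 104 FPKM in cryoablation with anti-PD-1 and 751, 558 and 772 FPKM in cryoablation. Their part in the result was not tested.

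Averaged over the 3 ablations, anti-PD-1 went with lower levels of Col3a1, Col16a1, Col5a1, Col4a5, Col6a1 and Col6a2. Of 26 genes these 6 were lower and 0 higher, with backgrounds of 4.75% lower and 5.28% higher. Col3a1 averaged 454 FPKM over the 9 tumours with the antibody and 757 FPKM over the 9 without, a log2 change of -0.72 (SE 0.19, adjusted p = 0.0316). Col16a1 had -0.34 (SE 0.08, adjusted p = 0.0188), Col5a1 -0.38 (SE 0.11, adjusted p = 0.0379) and Col4a5 -0.51 (SE 0.14, adjusted p = 0.0344). Col6a1 fell by 0.53 and Col6a2 by 0.59 on the log2 scale (adjusted p = 0.0443 and 0.0436). Col1a1 had 0.16 (SE 0.20, adjusted p = 0.64), with a 95% interval of -0.27 to 0.60. Col12a1 had 0.76 (SE 0.27, adjusted p = 0.082) and Col15a1 0.51 (SE 0.18, adjusted p = 0.0828), both on the higher side without passing. Col18a1 had -0.14 (SE 0.11, adjusted p = 0.427) and Col27a1 -0.07 (SE 0.08, adjusted p = 0.638), which did not pass. The median over the 26 genes was 0.01, against 0.00 over all genes.

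Without the skin-rich tumours 0 of the 26 passed with limma, where Col3a1 had -0.71 (adjusted p = 0.113), and in that fit 199 genes of all passed in place of 1262. The count of 6 was 1 without replicate 1 of cryoablation, replicate 1 of cryoablation with anti-PD-1, replicate 2 of cryo-thermal therapy with anti-PD-1 or replicate 1 of radiofrequency ablation with anti-PD-1. It was 2 without replicate 3 of cryoablation, of radiofrequency ablation or of cryo-thermal therapy with anti-PD-1, 3 without replicate 1 of the last, 11 with array weights (20.9% of all genes) and 1 with no filter on low values. Within each ablation the log2 fold change of Col3a1 was -1.04 in cryoablation, -0.47 in radiofrequency ablation and -0.65 in cryo-thermal therapy, none past the threshold. Of the marker lists, 4 of 8 skeletal muscle genes (Acta1, Atp2a1, Myh1 and Myl1) and 2 of 7 T cell genes (Cd4 and Cd2) were higher with the antibody. So were Des among 6 smooth muscle and pericyte genes and Cdh1 among 3 epithelial genes, and Mertk among 6 macrophage genes was lower. Of 15 fibroblast genes other than collagens 1 was higher and 2 were lower (Thy1, Pdgfrb and Pdgfra). Of 11 TGF-beta genes Tgfbr3 and Tgfb1 passed, 1 in each direction, named here in order of p-value and not of direction. Over all genes 5.28% were higher and 4.75% lower. Skeletal muscle genes summed to 13.6 to 81.9 FPKM with the antibody and 3.35 to 67.6 FPKM without, and T cell genes to 5.60 to 38.2 FPKM with it and 2.33 to 36.9 FPKM without. Their part in the result was not tested.

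**Figure D5:**
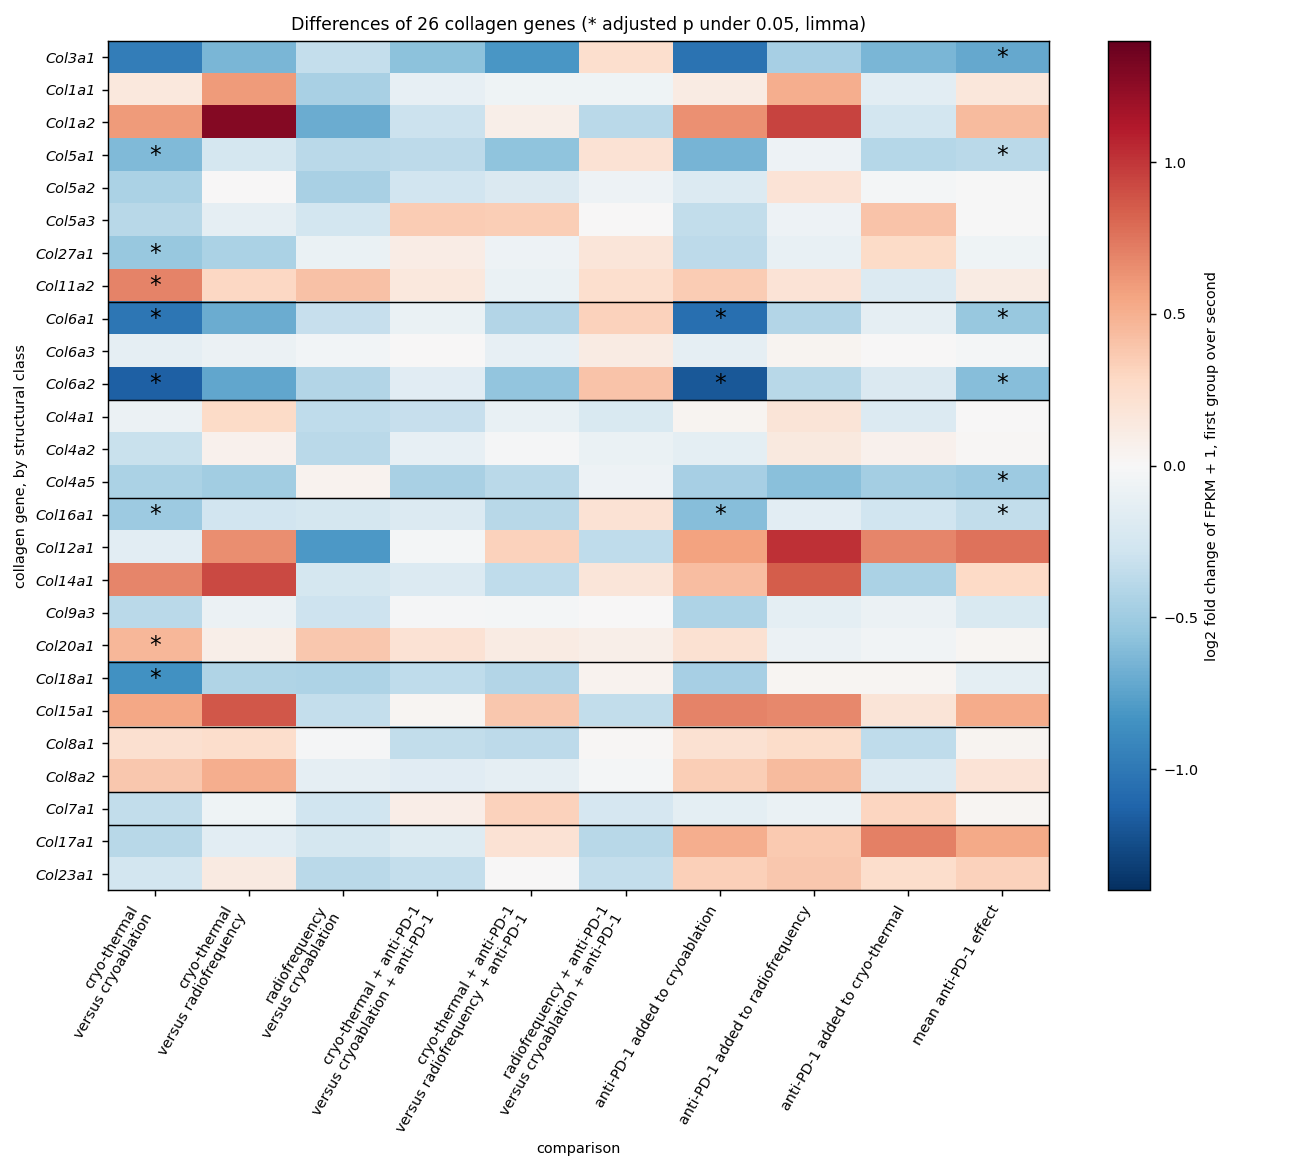
Log2 fold changes of FPKM + 1 for 26 collagen genes (rows, by class) in 10 comparisons (columns), first group over second; stars mark adjusted p under 0.05. Stars stand in 3 columns, with 8 genes for cryo-thermal therapy versus cryoablation, 3 for anti-PD-1 added to cryoablation and 6 for the mean anti-PD-1 effect.

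In the other comparisons no collagen gene passed limma. For cryo-thermal therapy against radiofrequency ablation 0 of 26 passed (background 0.00794%), and 9 were under 0.05 without adjustment (background 13.6%). Col14a1, a fibril-associated chain of skin and tendon, had a log2 change of 0.93 (SE 0.32, adjusted p = 0.267), and Col27a1 of -0.44 (SE 0.14, adjusted p = 0.262). Col1a2 had 1.29 (SE 0.51, adjusted p = 0.314) and Col3a1 -0.64 (SE 0.34, adjusted p = 0.409). With array weights 10 passed (10.9% of all genes), and 4 when cryo-thermal replicate 3 was left out. For radiofrequency ablation against cryoablation 0 passed (background 0.00794%), with 4 under 0.05 without adjustment (background 15.1%) and 1 with array weights (4.54% of all genes). Col20a1 had 0.38 (SE 0.13, adjusted p = 0.218) and Col5a2 -0.45 (SE 0.18, adjusted p = 0.273).

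With anti-PD-1 in both groups, cryo-thermal therapy against cryoablation gave 0 collagen genes with limma (background 4.06%), and 1 was under 0.05 without adjustment (background 20.7%). The count was 8 with array weights (33% of all genes) and 1 without replicate 1 of cryoablation with anti-PD-1. Col8a1, a short-chain collagen of vessel walls, measured 24.2, 21.0 and 21.2 FPKM after cryo-thermal therapy with anti-PD-1 and 24.4, 32.7 and 28.6 FPKM after cryoablation with anti-PD-1, with 29.9, 29.5 and 26.9 FPKM after radiofrequency ablation with anti-PD-1. Without the antibody it measured 30.3, 29.2 and 26.2 FPKM after cryo-thermal therapy, 28.1, 21.2 and 23.0 FPKM after radiofrequency ablation and 23.3, 24.5 and 25.0 FPKM after cryoablation. It had a log2 change of -0.35 (SE 0.11, adjusted p = 0.0819) and Col5a1 -0.37 (SE 0.18, adjusted p = 0.279). Cryo-thermal therapy with anti-PD-1 against radiofrequency ablation with anti-PD-1 gave 0 (background 1.31%), with 6 under 0.05 without adjustment (background 17.2%) and 7 with array weights (17.1% of all genes). Col8a1 had -0.36 (SE 0.11, adjusted p = 0.0997) and Col5a1 -0.57 (SE 0.18, adjusted p = 0.127), and 8 genes lay lower and 0 higher without overlap, against backgrounds of 11.1% and 11.8%. Radiofrequency ablation with anti-PD-1 against cryoablation with anti-PD-1 gave 0 (background 0%), 0 under 0.05 without adjustment (background 5.85%) and 0 with array weights. Col23a1, a transmembrane collagen, had -0.33 (SE 0.19, adjusted p = 0.862) and Col7a1, the chain of anchoring fibrils of skin, -0.24 (SE 0.15, adjusted p = 0.862).

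Anti-PD-1 added to radiofrequency ablation gave 0 of 26 with limma (background 0.0477%), with 5 under 0.05 without adjustment (background 11.6%) and 0 with array weights. Col14a1 had 0.84 (SE 0.32, adjusted p = 0.331) and Col4a5 -0.58 (SE 0.24, adjusted p = 0.361). Anti-PD-1 added to cryo-thermal therapy gave 0 (background 0.373%), with 4 under 0.05 without adjustment (background 13%) and 13 with array weights (42.4% of all genes). Col8a1 had -0.35 (SE 0.11, adjusted p = 0.162) and Col17a1 0.71 (SE 0.31, adjusted p = 0.352). The difference between the antibody's effect with cryo-thermal therapy and with cryoablation passed for 0 genes (background 0.167%), with 5 under 0.05 without adjustment (background 13.4%), 12 with array weights (20.9% of all genes) and 4 without cryo-thermal replicate 3. In that test Col8a1 had -0.57 (SE 0.15, adjusted p = 0.123) and Col27a1 0.64 (SE 0.20, adjusted p = 0.179).

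Some lesser collagens belong to skin and vessels. Col17a1, the hemidesmosome collagen that ties keratinocytes to their basement membrane, measured 3.48, 1.49 and 0.341 FPKM after cryo-thermal therapy with anti-PD-1 and 0.403, 0.8 and 0.352 FPKM after cryo-thermal therapy. It measured 1.26, 1.64 and 0.642 FPKM after radiofrequency ablation with anti-PD-1 and 0.635, 0.552 and 0.821 FPKM after radiofrequency ablation, and 2.49, 1.44 and 1.57 FPKM after cryoablation with anti-PD-1 against 0.975, 1.27 and 0.708 FPKM after cryoablation. Its highest 2 values were in skin-rich tumours. Col7a1 measured 16.5, 20.6 and 21.3 FPKM after cryo-thermal therapy with anti-PD-1 and 12.8, 17.8 and 16.2 FPKM after cryo-thermal therapy. In radiofrequency ablation it stood at 14.8, 18.7 and 12.7 FPKM with the antibody and at 16.0, 16.4 and 16.3 FPKM without, and in cryoablation at 17.9, 21.7 and 15.3 FPKM with the antibody and at 18.5, 21.4 and 20.2 FPKM without. All 18 values lay between 12.7 and 21.7 FPKM. The skin-rich tumours were at 16.5, 17.9 and 21.7 FPKM, the last of these the highest of all. Col8a2, the partner of Col8a1 in type VIII networks, measured 0.759, 0.375 and 0.413 FPKM after cryo-thermal therapy with anti-PD-1 and 1.45, 0.538 and 0.351 FPKM after cryo-thermal therapy. In radiofrequency ablation it stood at 0.692, 0.506 and 0.749 FPKM with the antibody and at 0.0694, 0.118 and 0.496 FPKM without, and in cryoablation at 0.79, 0.466 and 0.799 FPKM with the antibody and at 0.192, 0.456 and 0.336 FPKM without. Its radiofrequency tumours given the antibody were all above those without it, though the nearest were at 0.506 and 0.496 FPKM. The share of all genes without overlap was not computed for these groups. Col23a1 measured 1.09, 0.625 and 0.5 FPKM after cryo-thermal therapy with anti-PD-1 and 0.611, 0.36 and 0.382 FPKM after cryo-thermal therapy. In radiofrequency ablation it stood at 1.00, 1.10 and 0.212 FPKM with the antibody and at 0.26, 0.177 and 0.577 FPKM without, and in cryoablation at 0.973, 1.31 and 1.24 FPKM with the antibody and at 0.493, 0.972 and 0.737 FPKM without. Col8a2 and Col23a1 both had their lowest value in replicate 1 or 2 of radiofrequency ablation. The remaining members ranged from 29.1 to 53.1 FPKM for Col5a2, 20.4 to 39.8 for Col5a3, 0.984 to 6.39 for Col14a1 and 1.20 to 2.96 for Col9a3.

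Genes that process, bind and degrade collagen were read from lists by role, with log2 fold changes given. Of 31 measured genes of collagen processing and cross-linking, cryo-thermal therapy against cryoablation had 2 higher and 3 lower, a share like that over all genes (8.01% higher and 6.96% lower). Serpinh1, the chaperone of newly made collagen, rose by 0.55 and the lysyl hydroxylase gene Plod3 by 0.27, while the cross-linking enzyme gene Loxl2 had -0.85 and Bmp1, whose product trims procollagen, -0.52 (adjusted p = 0.00433, 0.014, 0.00997 and 0.0112). The list's median was -0.04. Of 10 collagen receptors 1 was higher and 2 lower. Lair1, an inhibitory collagen receptor of immune cells, rose by 0.73, and the integrin subunit genes Itga10 and Itgb1 had -1.20 and -0.27 (adjusted p = 0.0166, 0.00555 and 0.0326). Of 8 genes of collagen breakdown and uptake 2 fell, Mmp14 with -0.41 and Mmp9 with -0.81 (adjusted p = 0.0433 and 0.0495). Of 11 TGF-beta genes 1 fell, the co-receptor gene Tgfbr3 with -0.82 (adjusted p = 0.013). Of 15 fibroblast genes other than collagens 2 fell, the receptor genes Pdgfra with -0.62 and Pdgfrb with -0.62 (adjusted p = 0.0297 and 0.0468), and the list's median was 0.17.

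When anti-PD-1 was added to cryoablation, 1 of 31 processing genes rose, Serpinh1 by 0.43, and 1 of 10 receptors fell, Itga10 with -1.53 (adjusted p = 0.0189 and 0.0112), where 1.79% of all genes were higher and 2.53% lower. Tgfbr3 had -0.86 and Pdgfra -0.65 as the 1 gene past the threshold in each of their lists (adjusted p = 0.0308 and 0.0481), and none of the 8 breakdown genes passed. For the mean anti-PD-1 effect the processing list had 3 higher and 2 lower of 31, where 5.28% of all genes were higher and 4.75% lower. Adamts14, a procollagen protease gene, rose by 0.23, Plod3 by 0.15 and Serpinh1 by 0.16, while P4ha3, a prolyl hydroxylase subunit gene, had -0.37 (adjusted p = 0.0164, 0.0227, 0.0424 and 0.0166). Mrc2, an uptake receptor for collagen, had -0.40 and Mmp9 -0.50 (adjusted p = 0.0358 and 0.0486). Of the receptors Itga10 had -0.79 and Antxr1 0.52 (adjusted p = 0.00446 and 0.0446). Adamts14 was also higher in cryo-thermal therapy with anti-PD-1 than in cryo-thermal therapy, by 0.52, than in radiofrequency ablation with anti-PD-1, by 0.56, and than in cryoablation with anti-PD-1, by 0.54 (adjusted p = 0.0262, 0.0189 and 0.0122).

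Col3a1, Col6a1, Col1a1 and Col1a2 were each set over the 18 tumours against the mean log2 level of 16 lists of pathway and cell type genes, 64 relations with permutation p-values adjusted over r and rho together. The permutations ran over all 18 tumours without regard to group, so differences between groups enter these p-values. The r within groups has no p-value. Col3a1 ran against the 7 T cell genes, with r = -0.870 and rho = -0.887 (permutation adjusted p = 9.85e-05 for each). It was -0.823 without the 2 tumours farthest from the median and -0.758 within groups. Col6a1 had r = -0.822 and rho = -0.837 with the same list (permutation adjusted p = 4.00e-04 and 9.85e-05), -0.763 without the 2 tumours and -0.768 within groups. With the 15 fibroblast genes Col3a1 had r = 0.00248 and rho = 0.00722 (permutation adjusted p = 0.992 and 0.988). That r was -0.195 without the 2 tumours and 0.399 within groups. Col1a1 followed those fibroblast genes, with r = 0.913 and rho = 0.917, and the 9 endothelial genes, with r = 0.917 and rho = 0.903 (permutation adjusted p = 9.85e-05 for each). Without the 2 tumours these were 0.886 and 0.881, and within groups 0.893 and 0.937. Col1a2 had r = 0.890 with fibroblast, 0.916 with endothelial and 0.877 with smooth muscle and pericyte genes. Col3a1 also had r = 0.596 with erythroid genes (rho = 0.587, permutation adjusted p = 0.0378 and 0.0434), 0.558 without the 2 tumours and 0.505 within groups. For Col6a1 and erythroid genes r was 0.659 (rho = 0.659, permutation adjusted p = 0.01634 and 0.01765), 0.515 without the 2 tumours and 0.366 within groups. Against smooth muscle and pericyte genes Col6a1 had r = -0.654 (permutation adjusted p = 0.01634), -0.614 without the 2 tumours and -0.428 within groups. With T cell genes Col1a1 had r = 0.113.

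The 10 genes outside the family nearest to the mean of Col1a1, Col1a2 and Col3a1 over the 18 tumours were Sfrp2 (r = 0.908), Ptprb (0.905), Grb10 (0.902), Sparcl1 (0.898), Afap1l1 (0.896), C130074G19Rik (0.888), Kdr (0.884), Nid2 (0.882), Lama4 (0.881) and Ctsf (0.880). Nid2 and Lama4 encode basement membrane proteins, and Kdr and Ptprb receptors of endothelial cells. Sfrp2 and Lama4 were also among the 10 nearest to Col1a1 alone. The 10 nearest to Col3a1 alone held none of these genes, and were led by Gpr153 (r = 0.968), Mxra8 (0.964), C1qtnf1 (0.962) and Mxra7 (0.961).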

How the data were processed

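RNA-seq libraries were made from 18 tumours in 6 groups of 3. The deposited values were FPKM per gene for all tumours in 1 table, computed by the authors. The submitters' processing notes name HTSeq 0.11.2, and per the labels' protocols the RNA came from a TRIzol and silica column extraction, DNase included, followed by a VAHTS Universal V6 library kit. The aligner, genome build, annotation and strand setting are not given in the sources used here, so overlapping genes cannot be told apart and no gene coordinates from the files are printed. FPKM hold no counts, and only the relative depth of the libraries could be estimated from the steps of low values, with the limit given above.

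limma 3.58.1 in R 4.3.3 was run with a mean-variance trend on log2(FPKM + 1) for genes with a mean of at least 0.5 FPKM, with all 6 groups in 1 fit and 11 comparisons; fold changes on this scale understate those of low genes. Calls are at a Benjamini and Hochberg adjusted p under 0.05 over all genes. For a single gene, an exact permutation test of 3 against 3 tumours could not go below 0.1. The script was tested on simulated data. Collagen genes were named by class: values for the 2 highest of each structural class and for every gene past the threshold, or the 2 smallest p-values where none passed. The members, lists and comparisons were chosen with earlier results of these data known. Promoter sequences came from RefSeq. Other steps ran in Python 3.11.15 (numpy 2.4.6, pandas 2.3.3, matplotlib 3.10.9, scipy 1.17.1).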

Additional observations from a re-analysis of the deposited data

Results flagged for a closer look

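The 26 genes were searched over several contrasts for groups wholly apart in opposite directions, and only Col8a1 was found. How many of all genes show such a pattern was not computed. Col8a1 lay on opposite sides in the same contrast with and without the antibody. With the antibody the nearest tumours of the 2 groups were at 24.22 and 24.40 FPKM. With anti-PD-1 it measured 24.2, 21.0 and 21.2 FPKM after cryo-thermal therapy and 24.4, 32.7 and 28.6 FPKM after cryoablation, a ratio of group means of 0.776. Without anti-PD-1 it measured 30.3, 29.2 and 26.2 FPKM after cryo-thermal therapy and 23.3, 24.5 and 25.0 FPKM after cryoablation. The difference between the contrasts, tested as the interaction with limma, was -0.57 (SE 0.15, adjusted p = 0.123) on the log2 scale and did not pass.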

How the results depend on the processing

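The counts of collagen genes past the threshold were 8 for cryo-thermal therapy against cryoablation, 3 for anti-PD-1 added to cryoablation and 6 for the mean anti-PD-1 effect, and 0 in the other 8 comparisons. With no filter on low values they became 1, 0 and 1, and with array weights 16, 7 and 11, where 43.4%, 15.7% and 20.9% of all genes passed. Array weights also gave 10 for cryo-thermal therapy against radiofrequency ablation, 1 for radiofrequency ablation against cryoablation, 8 for cryo-thermal therapy with anti-PD-1 against cryoablation with anti-PD-1, 7 for cryo-thermal therapy with anti-PD-1 against radiofrequency ablation with anti-PD-1, 13 for anti-PD-1 added to cryo-thermal therapy and 12 for the difference of antibody effects, with 10.9%, 4.54%, 33%, 17.1%, 42.4% and 20.9% of all genes passing in the same order. A fit of only the groups compared gave 1 for cryo-thermal therapy against cryoablation and 6 for anti-PD-1 added to cryoablation. Leaving out the 3 skin-rich tumours, an alternative chosen after seeing the data, gave 7 for cryo-thermal therapy against cryoablation, 0 for anti-PD-1 added to cryoablation and 0 for the mean anti-PD-1 effect. Leaving out 1 tumour at a time gave 1 to 10 for cryo-thermal therapy against cryoablation, 0 to 3 for anti-PD-1 added to cryoablation, 1 to 9 for the mean effect, 0 to 4 for cryo-thermal therapy against radiofrequency ablation, 0 to 4 for the difference of antibody effects and 0 to 1 for cryo-thermal therapy with anti-PD-1 against cryoablation with anti-PD-1. The cause of these changes was not tested. A pseudocount of 0.1, a filter at 1 FPKM and median ratio scaling kept every count within 1.5 times. The filter at 1 FPKM removes Col11a2 and Col20a1, with means of 0.872 and 0.753 FPKM, the genes called higher after cryo-thermal therapy than after cryoablation. Of the values of single named genes under the alternatives, 705 stayed on their side of the threshold, 126 lost it and 22 gained it. Of those that passed in either fit, 0 changed direction. Changes of sign where neither fit passed are counted as staying. An example is Col3a1 in the difference of antibody effects, with 0.39 in the main fit and -0.04 without the skin-rich tumours.

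Replicate numbers were shared between groups. Same-numbered tumours deviated together with r of -0.467 to 0.591 (median -0.000676 over 45 pairs), and 8 of 18 tumours correlated best with their own number, so the number is taken as a name. With the replicate block the counts were 8, 3 and 6, and 0 in the others.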
